A study of Mus musculus with 9 samples.

Results

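The expression of 10 transcription factor genes that mark resting, naive or stem-like T cells was followed through activation and through inhibition of IKK-beta: Tcf7, Lef1, Bach2, Satb1, Foxp1, Foxo1, Foxo3, Ets1, Myb and Id3. They were taken by symbol from the 49671 genes of the count table, and all 10 were present and passed the filter on low counts. The RNA came from CD3+ T cells enriched on columns from the spleens of female F1 mice, bred from C57BL/6 mothers carrying a heterozygous Xist deletion and M. m. castaneus fathers; all 3 groups share this cross, which the submitters describe as a model of skewed X inactivation. Inhibitor-treated cells were cultured for 48 hours with 1 µg/ml plate-bound anti-CD3, 10 µg/ml soluble anti-CD28 and 2.5 µM IMD-0354, a small molecule that blocks the kinase IKK-beta in the NF-kB pathway. Stimulated cells had the same culture without IMD-0354. Unstimulated cells went into TRIzol directly after enrichment (n = 3 libraries in each group). The labels give no age, no vehicle and no culture without antibodies, so stimulation and culture cannot be told apart, and the replicates are called biological without being tied to animals. p-values therefore measure the spread between these libraries, which may be technical in part.

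In naive and memory T cells these factors hold genes of quiescence, survival and lymph node homing in place, and they restrain effector programmes. TCF1, the product of Tcf7, and LEF1 are high-mobility-group factors that can pair with beta-catenin or with Groucho corepressors, whereas FOXO1 and FOXO3 are forkhead factors that leave the nucleus when antigen receptor signalling activates AKT. BACH2 represses effector genes, MYB supports stem-like CD8 T cells, FOXP1 keeps naive cells quiescent, ETS1 is needed for T cell survival and IL-7 receptor expression, SATB1 organises chromatin in the T lineage, and ID3 blocks the DNA binding of E proteins.

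The promoter windows of the RefSeq annotation (GRCm38.p6, 250 bases before to 50 bases after a start site) are shown for Tcf7, Bach2 and Myb, whose levels were higher with the inhibitor, and for Foxo1, whose level was lower. Windows were matched for 9 of the 10 genes, Ets1 being the other one. Capitals mark matches to any of 5 motifs, searched on both strands: the kappaB-type motif (GGG, any 2 bases, TTTCC), the forkhead TGTTTAC, the TCF/LEF TCAAAG, the ETS CCGGAAGT and the E-box CAGGTG.
Tcf7, chr11:52282546-52282845, minus strand, the second of its 2 windows: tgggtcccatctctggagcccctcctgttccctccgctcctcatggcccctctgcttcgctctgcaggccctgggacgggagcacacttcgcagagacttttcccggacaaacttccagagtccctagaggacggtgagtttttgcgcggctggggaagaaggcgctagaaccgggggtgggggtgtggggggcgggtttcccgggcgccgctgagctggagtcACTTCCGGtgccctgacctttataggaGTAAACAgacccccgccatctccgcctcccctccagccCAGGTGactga
Bach2, chr4:32417185-32417484, plus strand: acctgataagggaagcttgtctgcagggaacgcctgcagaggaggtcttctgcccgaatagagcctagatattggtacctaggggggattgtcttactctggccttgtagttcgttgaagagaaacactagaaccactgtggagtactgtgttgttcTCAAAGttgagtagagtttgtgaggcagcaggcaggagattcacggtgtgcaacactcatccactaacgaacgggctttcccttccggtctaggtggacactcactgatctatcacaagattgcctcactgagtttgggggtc
Myb, chr10:21160935-21161234, minus strand: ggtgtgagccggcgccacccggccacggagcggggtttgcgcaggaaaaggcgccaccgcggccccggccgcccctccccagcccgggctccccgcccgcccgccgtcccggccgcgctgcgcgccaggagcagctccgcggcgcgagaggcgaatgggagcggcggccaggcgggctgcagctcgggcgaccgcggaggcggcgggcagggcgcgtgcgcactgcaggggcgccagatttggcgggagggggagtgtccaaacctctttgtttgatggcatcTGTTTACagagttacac
Foxo1, chr3:52268087-52268386, plus strand: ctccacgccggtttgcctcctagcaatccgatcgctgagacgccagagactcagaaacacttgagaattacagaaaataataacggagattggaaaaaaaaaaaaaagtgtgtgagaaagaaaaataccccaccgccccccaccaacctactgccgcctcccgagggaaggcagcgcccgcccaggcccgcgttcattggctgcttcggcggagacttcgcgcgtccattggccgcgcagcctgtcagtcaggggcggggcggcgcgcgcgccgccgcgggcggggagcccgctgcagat
The printed Tcf7 window held an ETS match from base -26, a forkhead match from base 2 and an E-box match from base 40, counted from 1 at the start site. The first Tcf7 window, chr11:52282965-52283264, covers the annotated 5' end of the gene (base 52283014), held 0 matches and is not printed. Bach2 had a TCF/LEF match from base -93, in a window that lies inside the gene, whose annotated start is base 32238804. Myb had a forkhead match from base 34, and the Foxo1 window held no match. The matches printed here do not overlap one another. Among the 19 windows of the 9 genes, 0 held the kappaB-type motif, which 1.63% of all 32851 promoter windows held. Forkhead matches were in 2 of the 19 windows, against 3.65% of all windows, TCF/LEF matches in 3, against 16.0%, ETS matches in 1, against 3.89%, and E-box matches in 5, against 20.2%. A match is a run of letters and not evidence of binding, and a missing match says nothing about sites elsewhere.

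Total counts were between 34009988 and 56221174 per library, and each level below is a CPM, the count over the TMM-scaled library size. T cell identity was clear in all 3 groups: 15 genes such as Cd3e and Lck summed to 3690 to 3820 CPM in inhibitor-treated, 4180 to 4320 CPM in stimulated and 2860 to 4390 CPM in unstimulated libraries. Single genes of the 15 differed (edgeR adjusted p under 0.05). With stimulation 5 rose and 3 fell, beside 32.0% and 34.0% of all genes. In inhibitor-treated against stimulated cells 2 rose and 5 fell, beside 21.7% and 22.8%. Against unstimulated cells 4 rose and 4 fell, beside 26.3% and 26.1%. Cd3e averaged 389 CPM in inhibitor-treated, 194 CPM in stimulated and 349 CPM in unstimulated cells. Transcripts of other cells were most abundant in the unstimulated libraries. Their 16 B cell markers summed to 1100 to 3200 CPM, with Igkc and Ighm the highest, against 166 to 172 CPM in inhibitor-treated and 86.8 to 95.0 CPM in stimulated libraries. Their 17 myeloid and dendritic cell markers summed to 1240 to 3130 CPM, led by Lyz2 and Mpeg1, against 82.7 to 107 CPM in inhibitor-treated and 37.0 to 40.9 CPM in stimulated libraries; Siglech, C1qa and C1qb were at 0 counts in stimulated cells. The 8 NK cell markers, led by Ncr1 and Klrd1 in unstimulated cells, summed to 16.8 to 19.8 CPM in inhibitor-treated, 34.2 to 48.7 CPM in stimulated and 262 to 327 CPM in unstimulated libraries. Erythroid and platelet markers, 13 genes with Hbb-bs and Alas2 the highest on average in unstimulated cells, summed to 6.05 to 14.7 CPM in inhibitor-treated, 8.99 to 13.2 CPM in stimulated and 58.9 to 771 CPM in unstimulated libraries, and Gp9 was at 0 counts in both cultured groups. Unstimulated library 2 had the highest sums of B cell, myeloid and erythroid markers and the lowest sum of T cell genes of its group, and it was the lowest of its group for 7 of the 10 genes. The 15 proliferation genes summed to 750 to 1180 CPM in inhibitor-treated, 3930 to 4000 CPM in stimulated and 362 to 1210 CPM in unstimulated libraries; their part in the results below was not tested. Inhibitor library 1 stood apart with counts in 30106 genes, against 20547 to 23223 in the others. Several of the 10 genes, among them Bach2, Foxp1, Foxo1 and Ets1, are also expressed by B cells, and in bulk RNA fewer cells of a type and less RNA per cell cannot be told apart.

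**Figure D1:**
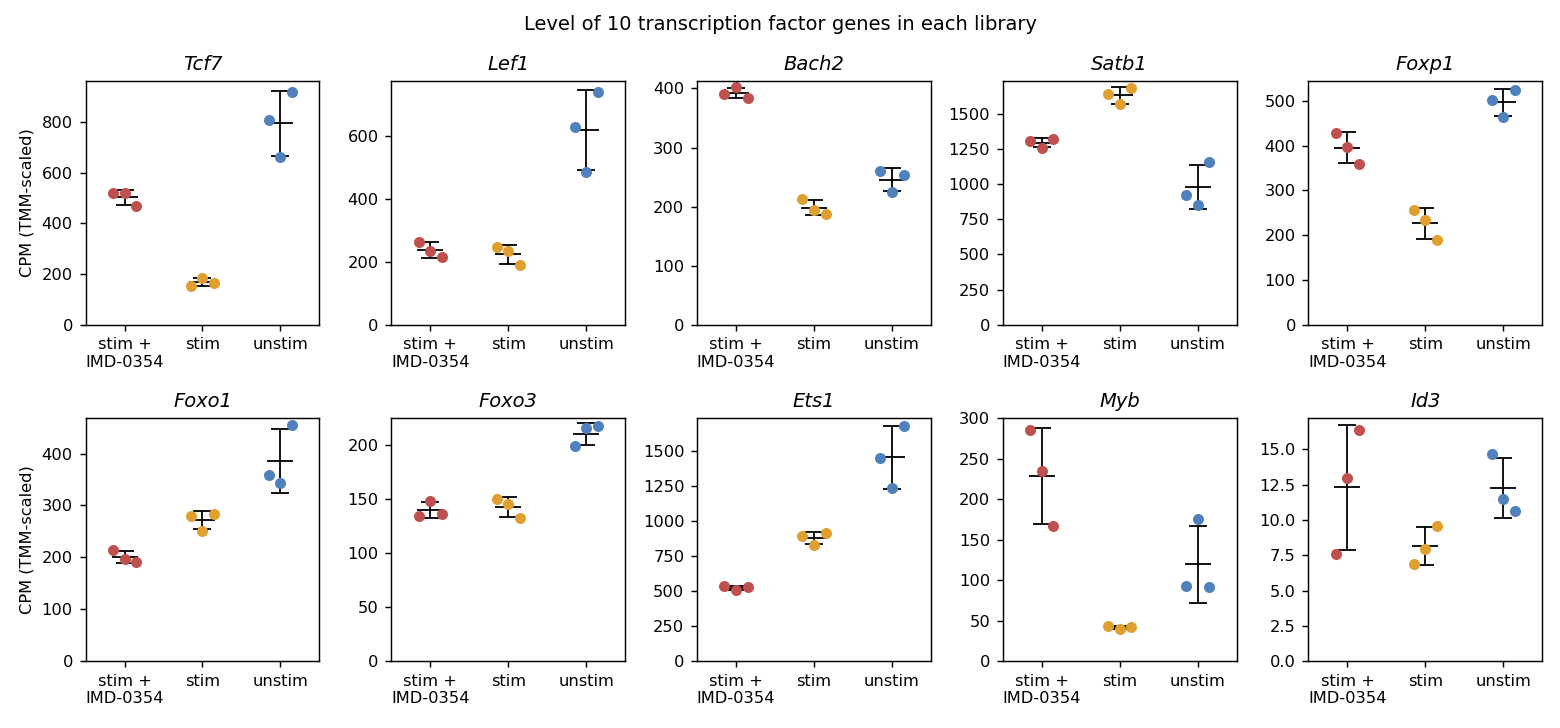
Level of each gene (y axis, CPM scaled with TMM factors, from 0) in the 3 libraries of each group: stimulated with IMD-0354 (red), stimulated (yellow) and unstimulated (blue); points are libraries, bars the mean and SD. Tcf7 and Foxp1 lie between the other groups in inhibitor-treated cells, Bach2 and Myb have their highest means there, Ets1 and Foxo1 their lowest, and Satb1 has its highest level in stimulated cells.

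Per kilobase of exon, Tcf7 had the highest level of the 10 in inhibitor-treated (192 ± 11.4 CPM per kb, SD, n = 3) and unstimulated cells (303 ± 48.9), and ranked 3 in stimulated cells (63.7 ± 5.89). Ets1 ranked 3 in inhibitor-treated (61.8 ± 1.45), 1 in stimulated (104 ± 5.05) and 2 in unstimulated cells (171 ± 26.1). Satb1 ranked 2 in both cultured groups (68.1 ± 1.77 with the inhibitor, 85.8 ± 3.07 without) and ranked 4 in unstimulated cells (51.5 ± 8.32), where its libraries overlapped those of Lef1 (70.4 ± 14.6) and Foxo1 (44.5 ± 7.07). Id3 was the lowest in every group, at 6.87 ± 2.47 CPM per kb in inhibitor-treated, 4.56 ± 0.755 in stimulated and 6.85 ± 1.19 in unstimulated cells, and in stimulated cells its libraries overlapped those of Myb (4.71 ± 0.198). Lengths are those of all annotated exons merged, so genes with many unused exons are set too low.

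**Figure D2:**
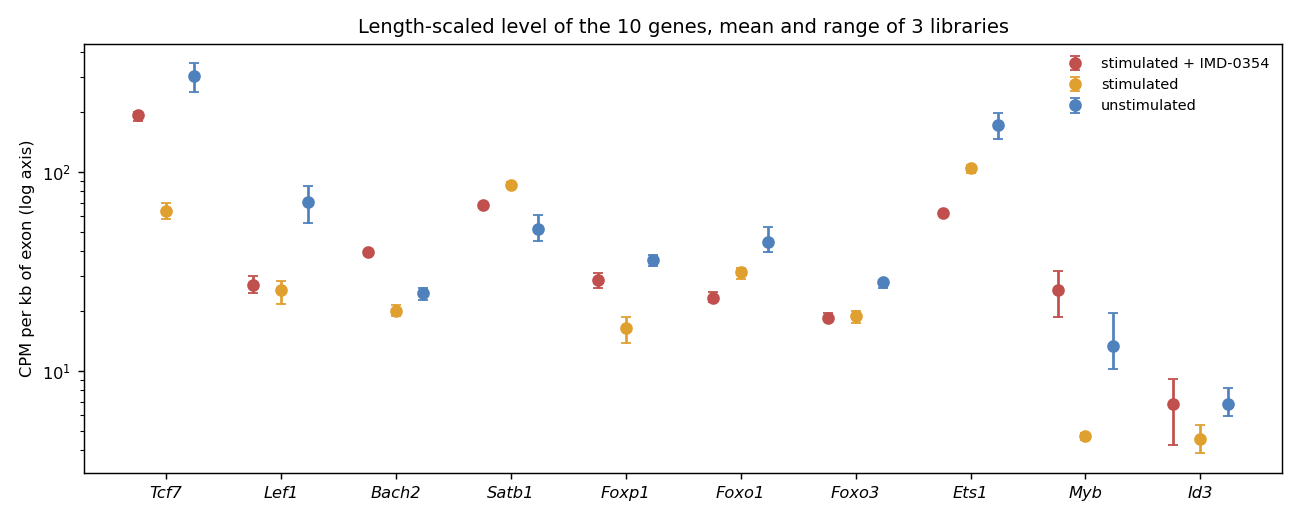
CPM per kilobase of merged exon (y axis, log scale) for the 10 genes, as the mean (point) and range (bar) of 3 libraries in inhibitor-treated (red), stimulated (yellow) and unstimulated cells (blue). Tcf7 leads in inhibitor-treated and unstimulated cells and Ets1 in stimulated cells, while Id3 is lowest throughout.

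The first question was what stimulation did to these genes. Of the 10, 8 fell and 1, Satb1, rose in stimulated relative to unstimulated cells (edgeR adjusted p under 0.05), against 34.0% of all 18374 genes tested that fell and 32.0% that rose, 66.0% in all. Their median log2 fold change was -0.66, and that of all genes -0.05. The second question was what the inhibitor did in stimulated cells: 4 rose (Tcf7, Bach2, Foxp1 and Myb) and 3 fell (Satb1, Foxo1 and Ets1), against 21.7% of all genes that rose and 22.8% that fell (44.5% in all), with medians of 0.34 for the 10 and 0.03 for all genes. The third set inhibitor-treated against unstimulated cells: 3 rose (Bach2, Satb1 and Myb) and 6 fell, against 26.3% and 26.1% of all genes (52.4% in all), with medians of -0.46 and -0.001. Each pair of these comparisons shares a group of libraries, so that their values are given side by side and not as independent results.

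**Figure D3:**
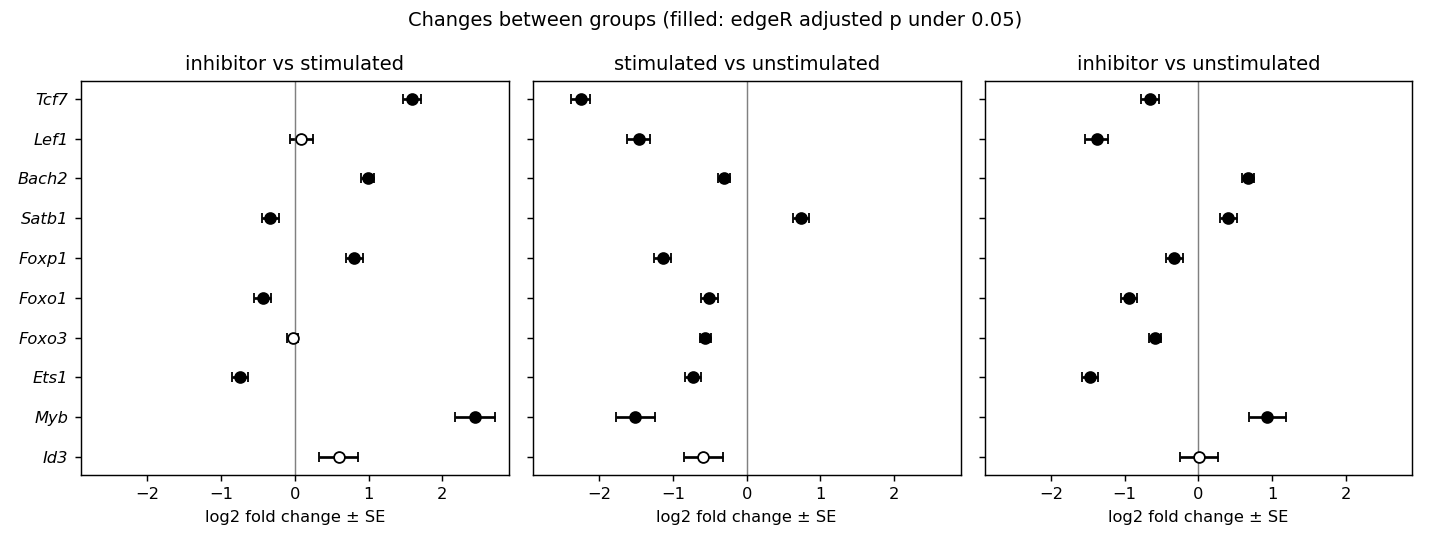
Log2 fold change of each gene (x axis) with its approximate SE (bar) in inhibitor-treated against stimulated, stimulated against unstimulated and inhibitor-treated against unstimulated cells; filled points passed edgeR's adjusted p of 0.05. With the inhibitor the changes run both ways, from Ets1 at -0.75 to Myb at 2.44, whereas with stimulation only Satb1 lies above 0.

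Tcf7 showed the largest fall with stimulation of the 10. The gene (ENSMUSG00000000782, chromosome 11, 52252371 to 52283014, GRCm38) had 522, 519 and 469 CPM in inhibitor-treated cells, 153, 183 and 166 CPM in stimulated cells and 808, 661 and 917 CPM in unstimulated cells. The 3 groups did not overlap, and inhibitor-treated cells stood between the others. Tcf7 fell by 2.25 ± 0.13 on the log2 scale in stimulated relative to unstimulated cells, a 4.76-fold lower level (edgeR adjusted p = 2.83e-07; the value after ± is an approximate SE here and below). With the inhibitor it was 3.01-fold higher than in stimulated cells (1.59 ± 0.12, adjusted p = 8.54e-06), and still 1.58-fold lower than in unstimulated cells (-0.66 ± 0.12, adjusted p = 0.00118). These calls held under all 20 alternative settings.

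Lef1, the close relative of Tcf7, fell with stimulation, and its level with the inhibitor overlapped that of stimulated cells. The gene (ENSMUSG00000027985, chromosome 3, 131110471 to 131224356) had 263, 235 and 215 CPM in inhibitor-treated cells, 248, 234 and 191 CPM in stimulated cells and 630, 485 and 741 CPM in unstimulated cells. Both cultured groups lay below all unstimulated libraries and overlapped each other. It fell by 1.46 ± 0.16 in stimulated (adjusted p = 2.11e-05) and by 1.38 ± 0.16 in inhibitor-treated cells (adjusted p = 5.22e-05), each against unstimulated cells. Between inhibitor-treated and stimulated cells no difference passed the test (log2 fold change 0.08 ± 0.16, adjusted p = 0.696), and the sign turned without stimulated library 3 (-0.03). An antisense gene, Gm43352, overlaps 1208 of the 8788 exon bases of Lef1 and had 2.35 to 13.7 CPM.

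Genes around TCF1 and LEF1 mostly fell with stimulation. Of 16 partners and beta-catenin pathway genes, 2 rose and 10 fell in stimulated relative to unstimulated cells, with a median log2 fold change of -0.43, beside 32.0% of all genes that rose and 34.0% that fell. With a minimum of 10 CPM, under which fewer of the 16 were tested, 1 rose. Axin2, a feedback inhibitor and a known target of beta-catenin with TCF/LEF factors, was at 10.4 ± 0.71 CPM in stimulated and 65.3 ± 18.4 CPM in unstimulated cells (adjusted p = 1.71e-06). The Groucho corepressor gene Tle4 was at 19.5 ± 1.86 CPM in stimulated and 134 ± 17.6 CPM in unstimulated cells (log2 fold change -2.78), and Bcl9l, a beta-catenin coactivator, at 30.7 ± 3.79 CPM in stimulated and 210 ± 43.7 CPM in unstimulated cells (-2.77). Ctnnb1, which encodes beta-catenin, rose by 0.48. In inhibitor-treated against stimulated cells 6 of the 16 rose and 5 fell (median 0.17), against 21.7% and 22.8% of all genes, 44.5% in all. Axin2 (0.91), Tle4 (1.47) and Bcl9l (0.84) were among those that rose and they were lower than in unstimulated cells (-1.74, -1.31 and -1.93). The Groucho family genes Tle3, Tle1 and Tle5 fell with the inhibitor (-0.72, -0.63 and -0.52). Against unstimulated cells, 1 of the 16 rose and 9 fell in inhibitor-treated cells (median -0.63), beside 26.3% and 26.1% of all genes. With a minimum of 10 CPM, under which fewer of them were tested, 0 rose, and without inhibitor library 1 or 2 there were 2.

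Bach2 and Myb were higher with the inhibitor than in either other group. Bach2 (ENSMUSG00000040270, chromosome 4, 32238804 to 32586108) had 391, 402 and 384 CPM in inhibitor-treated cells, 213, 195 and 187 CPM in stimulated cells and 260, 224 and 253 CPM in unstimulated cells. No groups overlapped, and the inhibitor-treated libraries were all above the rest. It fell by 0.31 ± 0.08 with stimulation (adjusted p = 0.00654), and rose by 0.98 ± 0.08 with the inhibitor relative to stimulated cells, or 1.98-fold (adjusted p = 1.23e-05). Relative to unstimulated cells it was 1.60-fold higher with the inhibitor (0.67 ± 0.08, adjusted p = 7.30e-05). B cells also express Bach2. Their summed markers were 166 to 172 CPM with the inhibitor, 86.8 to 95.0 CPM in stimulated and 1100 to 3200 CPM in unstimulated cells. In both cultured groups Ighm alone made up most of the sum (121 ± 1.85 CPM with the inhibitor, 55.7 ± 4.52 CPM in stimulated cells). Of the 16 markers, 8 rose and 0 fell past the test in inhibitor-treated against stimulated cells, beside 21.7% and 22.8% of all genes. The part of B cells in the Bach2 level was not tested.

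Myb had the largest increase of the 10 with the inhibitor. Myb (ENSMUSG00000019982, chromosome 10, 21124935 to 21160984) had 285, 234 and 167 CPM in inhibitor-treated cells, 43.7, 40.2 and 42.3 CPM in stimulated cells and 92.4, 175 and 91.3 CPM in unstimulated cells. Stimulated libraries were below all others, whereas the lowest inhibitor-treated library lay below unstimulated library 2. Myb was 2.84-fold lower in stimulated than in unstimulated cells (-1.51 ± 0.26, adjusted p = 5.37e-04). With the inhibitor it was 5.44-fold higher than in stimulated cells (2.44 ± 0.27, adjusted p = 7.20e-05) and 1.91-fold higher than in unstimulated cells (0.94 ± 0.26, adjusted p = 0.0113). Unstimulated library 2 also had the group's highest sums of erythroid and platelet markers (771 CPM, against 543 and 58.9 CPM in libraries 1 and 3) and of 15 proliferation genes (1210 CPM, against 488 and 362 CPM), and Myb is expressed in blood progenitors; their part in the Myb level was not tested. Without that library the change with stimulation was -1.13 (adjusted p = 2.85e-04) and that of inhibitor-treated against unstimulated cells 1.31 (adjusted p = 2.25e-04). Without inhibitor library 1, inhibitor-treated against unstimulated cells gave 0.75 (adjusted p = 0.0392).

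Prdm1, a gene that BACH2 is known to repress and that encodes the effector regulator BLIMP1, fell in both cultured groups and was lowest with the inhibitor. It had 3.06 ± 0.69 CPM in inhibitor-treated, 12.7 ± 2.82 CPM in stimulated and 27.9 ± 2.32 CPM in unstimulated cells, a log2 fold change of -2.05 against stimulated (adjusted p = 5.30e-05) and -3.19 against unstimulated cells (adjusted p = 1.96e-06). Over 15 transcription factors of effector and other activated states, 9 rose and 6 fell with stimulation (median 0.83), and 3 rose and 9 fell in inhibitor-treated against stimulated cells (median -0.50), beside 32.0% and 34.0% of all genes with stimulation and 21.7% and 22.8% with the inhibitor. In inhibitor-treated against unstimulated cells 6 rose and 6 fell (median -0.25), beside 26.3% and 26.1% of all genes. Batf3, Irf4 and Nfil3 had the largest increases with stimulation (4.67, 4.15 and 3.88), and Tox, Eomes and Zeb2 the largest falls (-3.20, -2.20 and -2.02). In unstimulated libraries 1, 2 and 3 Zeb2 had 169, 285 and 142 CPM, and the summed myeloid markers 1920, 3130 and 1240 CPM. Summed NK cell markers were 262 to 327 CPM in unstimulated and 34.2 to 48.7 CPM in stimulated libraries. The part of other cells in the falls of Zeb2, Eomes and Prdm1 was not tested. Irf4, a factor induced in proportion to receptor signalling, was at 995 ± 71.9 CPM in inhibitor-treated and 1068 ± 106 CPM in stimulated cells (adjusted p = 0.720). Nfil3 (-4.14) and the AP-1 partners Batf3 (-3.49) and Batf (-2.04) fell with the inhibitor. The 3 that rose with it were Tox (41.7 ± 3.21 CPM, against 7.17 ± 1.73 in stimulated cells), the T-box gene Tbx21 (134 ± 5.87, against 55.0 ± 2.79) and its relative Eomes (33.2 ± 5.0, against 15.7 ± 2.64). Against unstimulated cells, Irf4 (4.05), Bhlhe40 (2.55) and the growth regulator Myc (1.69) rose most in inhibitor-treated cells.

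Foxp1 put the groups in the same order as Tcf7 did. The gene (ENSMUSG00000030067, chromosome 6, 98925338 to 99522721) had 428, 398 and 360 CPM in inhibitor-treated cells, 256, 233 and 189 CPM in stimulated cells and 502, 465 and 524 CPM in unstimulated cells. The groups did not overlap, with inhibitor-treated cells in the middle. It fell by 1.14 ± 0.12 with stimulation (adjusted p = 1.49e-05) and rose by 0.81 ± 0.12 with the inhibitor relative to stimulated cells (adjusted p = 3.94e-04). Its lower level in inhibitor-treated than in unstimulated cells (-0.33 ± 0.12, adjusted p = 0.0353) lost its call without unstimulated library 1 or 3 (adjusted p = 0.0791 and 0.0963) and without inhibitor library 2 or 3 (0.0812 and 0.125). Gm20696, a gene on the same strand that overlaps Foxp1 exons, had 19.6 to 73.2 CPM.

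Both FoxO genes fell with stimulation, and neither rose past the test with the inhibitor. Foxo1 (ENSMUSG00000044167, chromosome 3, 52268336 to 52353221) had 215, 197 and 191 CPM in inhibitor-treated cells, 280, 252 and 283 CPM in stimulated cells and 358, 343 and 456 CPM in unstimulated cells. Its 3 groups were apart, in the order of lowest with the inhibitor and highest when unstimulated. It fell by 0.50 ± 0.11 with stimulation (adjusted p = 0.00260) and by 0.94 ± 0.11 in inhibitor-treated relative to unstimulated cells (adjusted p = 6.88e-05). The further fall in inhibitor-treated against stimulated cells (-0.44 ± 0.11, adjusted p = 0.00990) lost its call under upper-quartile scaling (-0.30, adjusted p = 0.0852) and without scaling factors (-0.35, adjusted p = 0.054), so that this call depends on the scaling.

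Foxo3 (ENSMUSG00000048756, chromosome 10, 42181841 to 42276755) had 135, 148 and 136 CPM in inhibitor-treated cells, 150, 145 and 133 CPM in stimulated cells and 199, 215 and 217 CPM in unstimulated cells. The cultured groups overlapped each other and lay below every unstimulated library. It was 1.48-fold lower with stimulation (-0.56 ± 0.08, adjusted p = 1.16e-04) and 1.51-fold lower in inhibitor-treated than in unstimulated cells (-0.59 ± 0.08, adjusted p = 1.29e-04). Inhibitor-treated and stimulated cells differed by -0.03 ± 0.08 (adjusted p = 0.777), with a sign that turned under 5 of 20 alternatives.

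FoxO target and homing genes divided with the inhibitor. Of 14, 1, Ccng2, rose and 11 fell with stimulation (median -1.70), beside 32.0% of all genes that rose and 34.0% that fell; the call of Ccng2 was lost under upper-quartile scaling, without scaling factors and among genes of at least 10 CPM. Klf2, a known FOXO1 target and quiescence factor, changed most (-7.28, adjusted p = 2.61e-09). S1pr1, the receptor for exit from lymphoid organs, was at 20.7 ± 4.30 CPM in stimulated and 438 ± 121 CPM in unstimulated cells, and Pik3ip1, an inhibitor of PI3K, at 14.7 ± 1.20 CPM in stimulated and 143 ± 32.6 CPM in unstimulated cells. In inhibitor-treated against stimulated cells 6 rose and 4 fell (median 0.32), against 21.7% and 22.8% of all genes. The chemokine receptor gene Ccr7 rose to 1006 ± 137 CPM with the inhibitor, against 206 ± 33.1 CPM in stimulated and 248 ± 66.2 CPM in unstimulated cells (adjusted p = 1.75e-05 and 1.80e-05), and Klf2 (2.59) and Pik3ip1 (2.28) rose too. Il7r, the IL-7 receptor chain, had 38.6 ± 3.57 CPM with the inhibitor, 104 ± 9.54 CPM in stimulated and 380 ± 88.0 CPM in unstimulated cells and fell in both cultured groups. The cyclin gene Ccng2 fell by 1.57 in inhibitor-treated relative to stimulated cells. Against unstimulated cells, 1 of the 14, Ccr7, rose and 12 fell in inhibitor-treated cells (median -1.28), beside 26.3% and 26.1% of all genes.

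Ets1 fell with stimulation and fell further with the inhibitor. Ets1 (ENSMUSG00000032035, chromosome 9, 32636221 to 32757820) had 534, 510 and 527 CPM in inhibitor-treated cells, 890, 832 and 916 CPM in stimulated cells and 1447, 1234 and 1677 CPM in unstimulated cells. The groups were widely apart, and the inhibitor-treated libraries the most uniform. The log2 fold change was -0.72 ± 0.11 with stimulation (adjusted p = 2.17e-04), -0.75 ± 0.11 in inhibitor-treated against stimulated cells (adjusted p = 4.26e-04) and -1.47 ± 0.11 against unstimulated cells (adjusted p = 3.32e-06), a level 2.77-fold lower. All 3 calls held under the 20 alternatives.

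Satb1 was the 1 gene of the 10 that rose with stimulation. Satb1 (ENSMUSG00000023927, chromosome 17, 51736187 to 51833290) had 1306, 1259 and 1323 CPM in inhibitor-treated cells, 1645, 1569 and 1684 CPM in stimulated cells and 926, 855 and 1158 CPM in unstimulated cells. Stimulated libraries were the highest and unstimulated ones the lowest, without overlap. It was 1.67-fold higher in stimulated than in unstimulated cells (0.74 ± 0.11, adjusted p = 2.31e-04). Its level with the inhibitor was lower than in stimulated cells (-0.33 ± 0.11, adjusted p = 0.0346), but this call was lost when any 1 of the 6 libraries compared was left out (adjusted p = 0.0614 to 0.0993), under upper-quartile scaling (-0.20, adjusted p = 0.24) and without scaling factors (-0.25, adjusted p = 0.13). The increase over unstimulated cells (0.40 ± 0.11, adjusted p = 0.0121) was lost under upper-quartile scaling (adjusted p = 0.0704), without scaling factors (0.0595), among genes of at least 10 CPM (0.0602) and without unstimulated library 2 and inhibitor library 1 together (0.0516). A gene on the same strand, Gm36931, overlaps Satb1 exons and had 148 to 199 CPM. Together with Gm6934 it overlaps 284 of the 19027 exon bases of Satb1, and how reads in those bases were assigned is not known here.

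Id3 had the lowest level of the 10, and none of its differences passed the test. Id3 (ENSMUSG00000007872, chromosome 4, 136143497 to 136145755) had 7.59, 13.0 and 16.4 CPM in inhibitor-treated cells, 6.91, 7.98 and 9.59 CPM in stimulated cells and 14.7, 11.5 and 10.6 CPM in unstimulated cells, from 280 to 798 counts a library. Inhibitor-treated libraries spread over the range of both other groups, and the stimulated libraries lay below the unstimulated ones. The log2 fold change was -0.59 ± 0.26 with stimulation (adjusted p = 0.0710), 0.59 ± 0.26 in inhibitor-treated against stimulated cells (adjusted p = 0.0914) and 0.01 ± 0.26 against unstimulated cells (adjusted p = 0.984). The first passed the test under 8 of 20 alternatives (adjusted p = 0.0134 to 0.222 over all 20) and the second under 5, among them without inhibitor library 1 (0.85, adjusted p = 0.00958), the library with the lowest Id3 of its group. Of the 3 E protein genes whose products ID3 binds, Tcf12 had 182 ± 16.8 CPM with the inhibitor, 81.6 ± 10.3 CPM in stimulated and 209 ± 11.8 CPM in unstimulated cells (adjusted p = 2.36e-05 against stimulated cells). Tcf4, which B cells and plasmacytoid dendritic cells also express, fell by 2.61 with stimulation. Tcf3 was at 122 ± 4.65 CPM in inhibitor-treated, 130 ± 2.61 CPM in stimulated and 112 ± 17.8 CPM in unstimulated cells, and none of its 3 differences passed the test.

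Of 20 relatives of the 10 within their families, 17 were tested (not Foxo6, Foxp2 and Id4). With stimulation 5 rose and 11 fell (median -0.73), beside 32.0% of all genes that rose and 34.0% that fell. In inhibitor-treated against stimulated cells 6 rose and 5 fell (median -0.08), beside 21.7% of all genes that rose and 22.8% that fell. The 5 that rose with stimulation became 3 under upper-quartile scaling and without scaling factors, and 2 among genes of at least 10 CPM, where fewer were tested. The 5 that fell with the inhibitor became 3 under upper-quartile scaling, 2 without scaling factors or at 10 CPM, and 3 without unstimulated library 1 or stimulated library 1. Foxp4, a relative of Foxp1, was at 174 ± 9.42 CPM with the inhibitor, 90.6 ± 15.4 CPM in stimulated and 67.2 ± 6.33 CPM in unstimulated cells. Bach1, a heme-sensing repressor, had 34.7 ± 1.41 CPM in inhibitor-treated, 13.2 ± 1.19 CPM in stimulated and 87.6 ± 3.41 CPM in unstimulated cells. The ETS family gene Elk4 had 328 ± 12.7 CPM in inhibitor-treated, 155 ± 4.98 CPM in stimulated and 369 ± 48.7 CPM in unstimulated cells. Mybl2, a cell cycle gene related to Myb, ran the other way, with 12.6 ± 2.88 CPM with the inhibitor, 56.3 ± 6.53 CPM in stimulated and 8.75 ± 7.42 CPM in unstimulated cells. Against unstimulated cells 3 of the 17 rose and 9 fell in inhibitor-treated cells (median -1.02), beside 26.3% and 26.1% of all genes.

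Across the 9 libraries some of the 10 genes had like patterns. Lef1, Foxo1, Foxo3 and Ets1 all correlated with one another (r = 0.819 to 0.985). Satb1 correlated negatively with each of the others (r = -0.858 to -0.207), and Id3 reached at most 0.61, with Tcf7. The highest Pearson correlation of log2 CPM was between Foxo1 and Ets1 (r = 0.985), followed by Tcf7 with Foxp1 (r = 0.967), Lef1 with Foxo3 (r = 0.949) and Bach2 with Myb (r = 0.865), and the lowest was between Tcf7 and Satb1 (r = -0.858). These values are descriptions over 9 libraries in 3 separate groups, which share their group means and their libraries. Among the 7398 other genes ranked, each averaging 4 or more in log2 CPM, the nearest to Tcf7 were Brwd1 (r = 0.999; 167 ± 4.37 CPM in inhibitor-treated, 93.0 ± 3.88 in stimulated and 212 ± 15.4 in unstimulated cells) and Zmym5 (r = 0.998). Rasgrp1, an activator of Ras below the T cell receptor, was nearest to Foxp1 (r = 0.992), with Pdlim5 next (0.992). For Ets1 they were Fam78a (r = 0.997) and Il7r (r = 0.993), and for Foxo1 Selenot and Ablim1 (r = 0.985 and 0.981). Lef1 had Amer1 and Maml1 (r = 0.995 and 0.990), Foxo3 had Ano10 and Ikzf1, the gene of Ikaros (r = 0.987 and 0.983), and Satb1 had Pgam5 and Slc35g1 (r = 0.991 and 0.989). Bach2 was nearest to Dnajc1 and Irgm2 (r = 0.995 and 0.994), Myb to Tsc22d1 and Trps1 (r = 0.981 and 0.980) and Id3 to Commd4 and Atp6v0c (r = 0.957 and 0.950).

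Of 16 surface and growth-control genes of naive and memory T cells, 1, Ly6c1, rose and 13 fell with stimulation (median -1.99), against 32.0% and 34.0% of all genes. The call of Ly6c1 was lost under upper-quartile scaling, without scaling factors and without stimulated library 3. With a minimum mean of 10 CPM Ly6c1 was not tested, and 0 of the listed genes rose. In inhibitor-treated against stimulated cells 9 rose and 2 fell (median 0.48), against 21.7% and 22.8% of all genes, and with a minimum of 10 CPM, under which fewer genes were tested, 1 fell. Slamf6, a receptor that marks stem-like T cells together with TCF1, was at 95.0 ± 14.7 CPM with the inhibitor, 7.90 ± 2.43 CPM in stimulated and 132 ± 13.2 CPM in unstimulated cells; no difference between inhibitor-treated and unstimulated cells passed the test (-0.48, adjusted p = 0.0635). Klf3, a repressor of the Klf family, had 112 ± 14.8 CPM with the inhibitor, 11.4 ± 1.90 CPM in stimulated and 553 ± 37.8 CPM in unstimulated cells, and Il6st, a shared cytokine receptor chain, rose by 1.59 with the inhibitor. Il6ra, the IL-6 receptor chain, fell by 3.01 with stimulation. Igfbp4 and Ly6c1 were the 2 that fell with the inhibitor. Against unstimulated cells 1 of the 16, Lrig1, rose and 11 fell in inhibitor-treated cells (median -1.08), beside 26.3% and 26.1% of all genes.

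**Figure D4:**
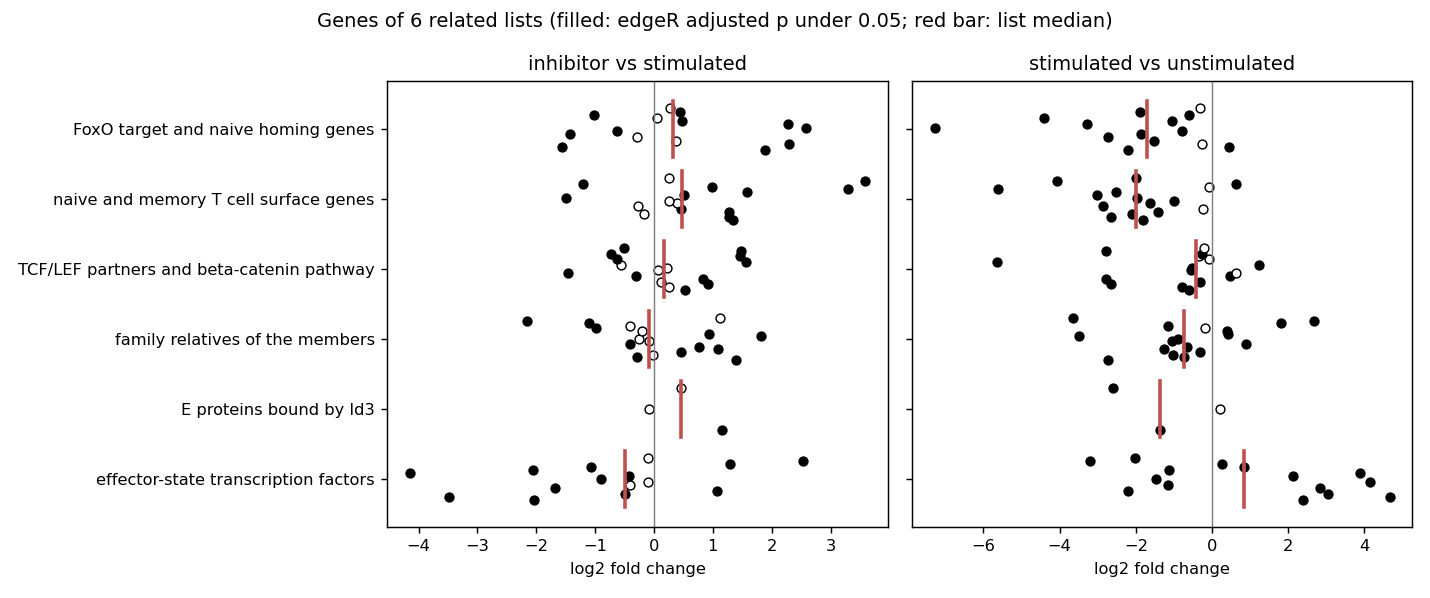
Log2 fold change (x axis) of each tested gene in 6 related lists (rows), for inhibitor-treated against stimulated cells and for stimulated against unstimulated cells; filled points passed edgeR's adjusted p of 0.05 and red bars are list medians. The row labelled naive and memory T cell surface genes also holds genes that encode no surface protein, such as Klf3. With the inhibitor it has a median of 0.48 and the row of effector-state factors one of -0.50. Both are the reverse in sign of their medians with stimulation (-1.99 and 0.83). The medians of the FoxO, TCF/LEF and E protein lists and of all genes (0.03 and -0.05) also change sign, and that of the family relatives does not. Both comparisons share the stimulated libraries.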

How the data were processed

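Total RNA of 9 libraries was sequenced with a stranded, ribosomal RNA-depleted kit, per the labels' protocols. Reads were aligned to mm10 with STAR 2.7.1a and assigned with featureCounts, per the submitters' processing notes. The annotation release, the strand setting and the treatment of read pairs are not stated in the sources used. The deposited values are raw counts per gene, without normalization. Gene names, exons and coordinates came from GENCODE M21 (GRCm38), which named 49326 of the 49671 genes. Even values make up 70.6% to 78.5% of counts from 1 to 10, so most fragments may count as a pair; counts halved were an alternative.

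The main test was edgeR 4.0.16 (R 4.3.3): filterByExpr, TMM factors, and the quasi-likelihood test in 1 fit over all 9 libraries with 6 residual degrees of freedom and Benjamini-Hochberg adjustment over 18374 genes (threshold 0.05). Approximate SEs are the log2 fold change divided by the root of F. CPM are counts divided by the TMM-scaled library size, log2 CPM had a prior count of 2, and libraries ranged from 34009988 to 56221174 counts; replicates of a group differed by more than sampling noise. On simulated counts with 100 genes changed at each fold size, the fit recovered 41, 39 and 46 at a log2 change of 1 and 64, 73 and 70 at 2, for stimulated against unstimulated (17841 genes), inhibitor-treated against stimulated (17790) and inhibitor-treated against unstimulated cells (17860). Calls among unchanged genes numbered 5, 12 and 6. The simulations changed a far smaller share of genes than was called in the data, so these recoveries cannot be carried over to the data. DESeq2 1.42.0, limma 3.58.1, other scalings and filters, a replicate block and libraries left out made 20 alternatives. Same-numbered libraries correlated at -0.194 to 0.144 and others at -0.105 to 0.143, so the numbers were not taken as pairs. Between inhibitor-treated and stimulated libraries, however, the 3 same-numbered pairs (0.144, 0.107 and 0.0782) were above all 6 others (-0.105 to 0.0263).

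The 10 genes and all lists were chosen with earlier results of these data known. All 10 are described. From each list, the 3 called genes of largest change in each direction, averaging 3 or more in log2 CPM, could be named, and for likeness the 2 most correlated genes averaging 4 or more; other list genes were named after their values were seen, and 1 gene that the rule names is not reported here.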

Additional observations from a re-analysis of the deposited data

How the results depend on the processing

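Over the 10 genes, 3 comparisons and 20 alternatives there were 600 results, of which 549 kept their direction and their side of the threshold, 18 lost a call, 13 gained one and 20 changed sign. All sign changes were in differences that passed no test. For Foxo3, inhibitor-treated against stimulated cells gave 0.101 with upper-quartile factors, 0.0547 with library size only, 0.0106 with a minimum of 10 CPM, 0.00873 when unstimulated library 2 and inhibitor library 1 were both left out, and -0.0853 to 0.00441 with 1 library left out; for Lef1 the range with 1 left out was -0.0263 to 0.158. For Id3, inhibitor-treated against unstimulated cells gave -0.0487 with RLE factors, -0.0975 with upper-quartile factors, -0.116 with library size only, -0.01 with no filter, -0.145 at 10 CPM, -0.0482 with DESeq2, -0.00356 with limma voom, -0.051 with the replicate block, -0.00273 with counts halved and -0.251 to 0.263 with 1 library left out. The 18 lost calls were the 12 of Satb1, 2 of Foxo1 and 4 of Foxp1 given above. With the replicate block, 11707, 7582 and 9125 genes were called in stimulated against unstimulated, inhibitor-treated against stimulated and inhibitor-treated against unstimulated cells, against 12126, 8182 and 9626 without it, and none of the 30 calls of the 10 genes changed. Among genes of at least 10 CPM fewer genes were tested, and 6951 were called in stimulated against unstimulated and 5867 in inhibitor-treated against unstimulated cells. Upper-quartile factors moved the median of all genes to -0.27 in stimulated against unstimulated and 0.16 in inhibitor-treated against stimulated cells, and library size only to -0.24 and 0.12. Id3 had the fewest counts of the 10.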
